A study of Mus musculus with 24 samples.

Results

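The Kcnq1ot1 imprinted domain of distal mouse chromosome 7 was followed through 3T3 mouse embryonic fibroblasts (MEFs), an immortalized fibroblast culture, as 10 of the 55471 annotated genes counted. Kcnq1ot1, a long non-coding RNA, was chosen from its read counts in these libraries, so its levels are given as a description and with no test. The 9 neighbours, Ascl2, Cd81, Tssc4, Kcnq1, Cdkn1c, Slc22a18, Phlda2, Nap1l4 and Osbpl5, are neighbours of it on the chromosome that were picked with earlier results of these data known, and the 7 that passed a filter on low counts were tested within a fit of all genes. The study asked how loss of the kinase LKB1, and of the coactivator CRTC2 that acts downstream of it, changed gene expression and the reaction to the cytokine IL-1β. RNA was sequenced from 4 MEF lines: wild type, Lkb1-/-, and the clones A1 and A2, in which Crtc2 was cut by CRISPR/Cas9 with guides to its first exon. Both clones were made in the Lkb1-/- line, so they share its Lkb1 loss, and each is the offspring of a single sorted cell. Every line was sampled untreated and after 6 h of IL-1β, with 3 libraries for each of the 8 groups. With 1 wild-type line, 1 Lkb1-/- line and 2 clones, a difference due to genotype and a difference carried by a line or clone cannot be told apart.

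Imprinted genes are read from the maternal or the paternal copy only. In this domain the paternal copy makes Kcnq1ot1, which starts at an unmethylated control region inside an intron of Kcnq1, runs antisense to Kcnq1, and silences protein-coding genes on the same chromosome copy. Cdkn1c, Phlda2, Slc22a18, Kcnq1 and Ascl2 are then read mainly from the maternal copy, while Nap1l4 and Cd81 are less strictly imprinted and vary with tissue. Gene counts do not separate the parental copies, so imprinting itself was not measured.

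On build GRCm38 the 10 genes span 790.2 kb of chromosome 7. Kcnq1ot1 (ENSMUSG00000101609.2) is annotated at chr7:143203458-143296549 on the minus strand as 1 exon of 93.09 kb, and lies wholly inside Kcnq1 (ENSMUSG00000009545.14, chr7:143106362-143427042, plus strand). On the centromeric side are Ascl2 (chr7:142966829-142969264), Cd81 (chr7:143052739-143067934) and Tssc4 (chr7:143069249-143071093). On the telomeric side follow Cdkn1c (chr7:143458339-143461050), Slc22a18 (chr7:143473736-143499334), Phlda2 (chr7:143501545-143503150), Nap1l4 (chr7:143513579-143549106) and Osbpl5 (chr7:143688762-143756985). The starts of Cdkn1c, Slc22a18 and Phlda2 lie 164.5, 177.2 and 206.6 kb from the start of Kcnq1ot1. The span holds 26 further annotated genes.

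Promoter windows of 300 bases, from 250 before to 50 after the annotated start, were given for 7 of the 10 genes (RefSeq, GRCm38.p6). They are printed for Kcnq1ot1, whose RNA was at or near 0 counts in both clones, for Slc22a18, which was higher in both clones than in Lkb1-/- MEFs, and for Phlda2, which passed in 2 of the 4 comparisons of a clone with Lkb1-/- MEFs. Capitals mark the letters TGACG (the core of the cAMP response element, which binds CREB, the partner of CRTC2) and CCAAT (a box bound by NF-Y), searched on both strands.
Kcnq1ot1, chr7:143296498-143296797, minus strand: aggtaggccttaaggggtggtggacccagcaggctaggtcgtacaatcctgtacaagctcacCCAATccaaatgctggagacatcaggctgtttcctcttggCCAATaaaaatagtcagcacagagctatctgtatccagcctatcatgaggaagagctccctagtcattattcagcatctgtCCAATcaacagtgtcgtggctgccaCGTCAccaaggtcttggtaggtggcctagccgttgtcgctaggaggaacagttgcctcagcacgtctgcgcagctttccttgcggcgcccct
Slc22a18, chr7:143473539-143473838, plus strand: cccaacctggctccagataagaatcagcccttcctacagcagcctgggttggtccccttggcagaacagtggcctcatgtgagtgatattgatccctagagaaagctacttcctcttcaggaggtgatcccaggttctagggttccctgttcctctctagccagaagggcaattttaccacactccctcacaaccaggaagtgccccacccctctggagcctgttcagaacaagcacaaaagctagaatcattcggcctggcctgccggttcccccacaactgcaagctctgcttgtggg
Phlda2, chr7:143502475-143502774, minus strand: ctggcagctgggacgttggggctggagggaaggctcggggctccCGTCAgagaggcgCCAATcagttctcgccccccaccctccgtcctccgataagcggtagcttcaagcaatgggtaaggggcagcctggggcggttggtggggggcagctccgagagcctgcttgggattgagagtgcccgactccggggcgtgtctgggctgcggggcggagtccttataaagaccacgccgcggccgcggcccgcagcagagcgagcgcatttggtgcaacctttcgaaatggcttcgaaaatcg
The Kcnq1ot1 window held 3 CCAAT boxes, at 188, 148 and 67 bases before the start, and 1 TGACG on the opposite strand, at 42 bases before the start. Of all 32851 promoter windows of this length, 37.4% held a CCAAT box, 3.37% held 3 or more, and 20.8% held TGACG. The full element TGACGTCA, which contains TGACG, was in 1.79% of windows and in none of the windows of these 7 genes. The Slc22a18 window held neither motif, and the Phlda2 window held 1 of each. The Kcnq1ot1 window had 9 CpG sites against a median of 7 over all windows, the Phlda2 window 26 and the Slc22a18 window 2. These matches describe letters and say nothing of binding in these cells.

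The libraries held 38842901 to 48594394 read pairs assigned to genes (median 42431965), and the second of the strand settings took 95.5 to 96.0% of strand-assigned pairs. The replicate 1 libraries of all 8 groups stood apart from replicates 2 and 3, with a larger share of pairs outside exons (up to 18.7% against a median of 10.7%), so calls on the neighbours that changed without them are given with both values. Stk11, the gene of LKB1, had a level of 86.0 ± 1.68 CPM (pairs of a gene scaled to a common library size; mean ± SD, n = 3 here and below) in untreated wild type and 17.3 ± 1.24 CPM in Lkb1-/-, and Crtc2 was lower in both clones than in Lkb1-/- MEFs but not at 0 (log2 fold changes of -0.92 and -0.70, untreated). Of 8 fibroblast markers, 7 or 8 were above 3 counts in every group, with a summed level of 3785 to 7668 CPM. The lines were not alike in them: 6 of the 7 tested passed in untreated Lkb1-/- against wild type (2 higher, 4 lower, among them Col1a2 at -3.63 and Fbln2 at 3.92 on the log2 scale), where 55.9% of all genes passed, and Col1a2 was higher in both untreated clones than in Lkb1-/- (1.96 in A1 and 1.02 in A2). The part of such differences in the results below was not tested. The endothelial, epithelial and germ or pluripotent lists summed to at most 0.658 CPM in any library. The 3 haematopoietic markers summed to 2.39 to 6.82 CPM, with Ptprc and Adgre1 at no more than 3 counts in any group. By the edgeR test the third, Cd68, was higher in untreated A1 (0.57, FDR = 0.037) and A2 (0.67, FDR = 0.016) than in Lkb1-/- MEFs. At levels near 0, Epcam was higher in untreated Lkb1-/- than wild-type MEFs (2.77, FDR = 0.002). Nanog was higher in untreated A1 (2.36, FDR = 0.00075) and A2 (2.02, FDR = 0.0035) than in Lkb1-/- MEFs. No label says that replicates were separate cultures, so test results measure only the spread between these samples, which may be technical.

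Kcnq1ot1 was highest in wild-type MEFs, about 4-fold lower in Lkb1-/- MEFs and at or near 0 counts in both clones. Untreated wild-type libraries held 1480, 1473 and 1174 read pairs of Kcnq1ot1, and IL-1β-treated ones 1716, 1917 and 1203. Untreated Lkb1-/- libraries held 432, 347 and 273, and treated ones 595, 373 and 312. Every Lkb1-/- library was below every wild-type library. Clone A1 held 1, 2 and 0 pairs untreated and 1, 2 and 1 after IL-1β. Clone A2 held 1 pair in a single untreated library and 0 in the other 5.

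The Kcnq1ot1 level was 32.5 ± 1.71 CPM in wild type without treatment and 8.11 ± 1.64 CPM in Lkb1-/-, a 4.01-fold lower mean. After IL-1β the means were 39.4 ± 7.29 and 9.84 ± 3.85 CPM, again 4.01-fold lower. Within the same replicate number, Lkb1-/- libraries held 0.212 to 0.296 of the wild-type level untreated and 0.173 to 0.337 after IL-1β. Pooled over 3 libraries, the untreated Lkb1-/- level was 342 times that of clone A1 (95% exact counting interval 117 to 1662) and 1125 times that of clone A2 (201 to 44479). After IL-1β it was 302 times that of clone A1 (118 to 1111) and at least 432-fold higher than that of clone A2, taking a floor of 3 counts over the group. Intervals and floors cover counting error only. Clones A1 and A2 were too near the floor to be ranked. In a bulk sample, fewer cells that make an RNA and less of it per cell cannot be told apart.

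Treated and untreated Kcnq1ot1 levels overlapped in wild-type MEFs (ratio of means 1.21) and in Lkb1-/- MEFs (1.21). The order of the lines was thus wild type, then Lkb1-/-, then the clones, and libraries of neighbouring levels did not overlap, apart from those of the clones, which were both at the floor.

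**Figure D1:**
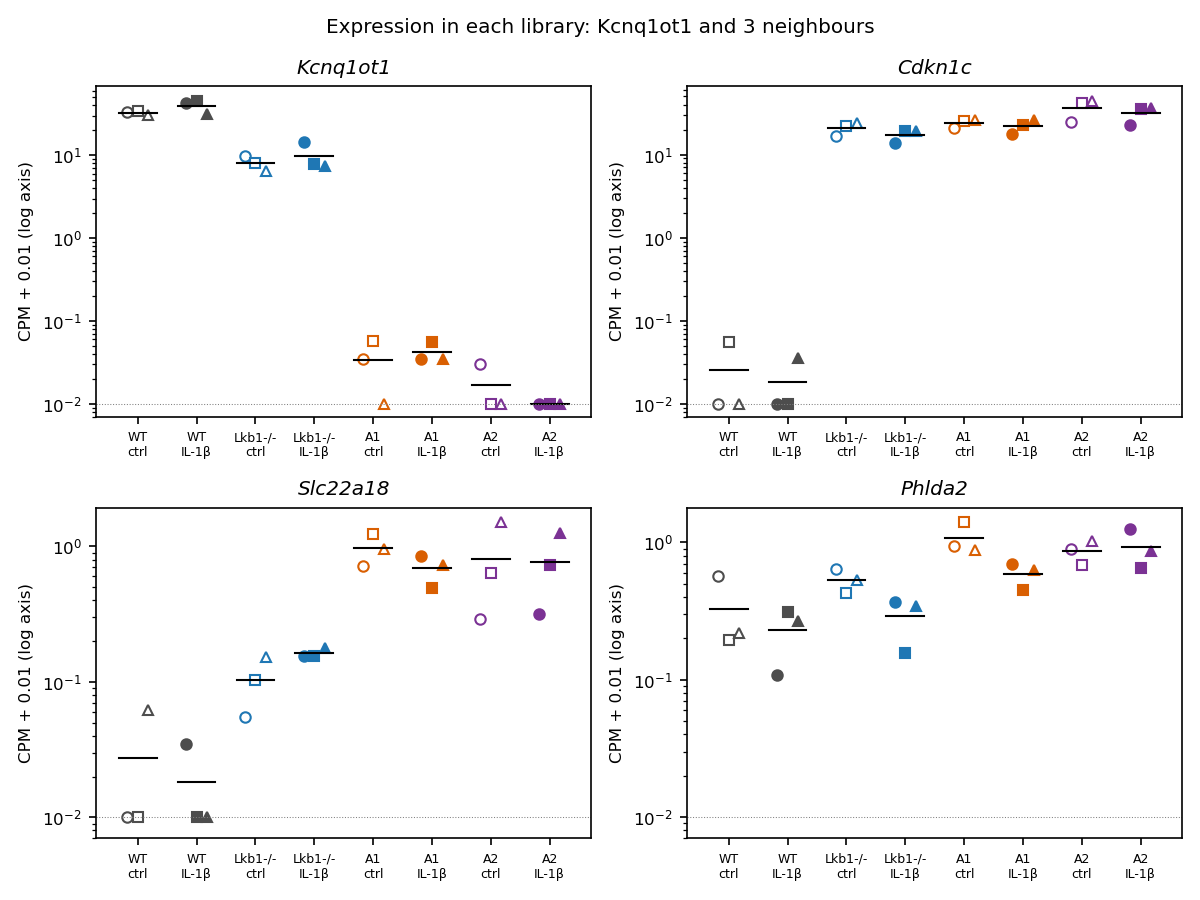
CPM + 0.01 on a log axis in each of the 24 libraries for Kcnq1ot1, Cdkn1c, Slc22a18 and Phlda2. Circles, squares and triangles are replicates 1, 2 and 3, open symbols are untreated and filled symbols IL-1β, bars are group means, and the dotted line is 0 CPM. Kcnq1ot1 lay between 30.6 and 44.8 CPM in wild-type MEFs and at most at 0.0480 CPM in the clones, and Cdkn1c was at most at 0.0460 CPM in wild-type MEFs and at least at 13.8 CPM elsewhere.

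The reads came from the strand of Kcnq1ot1. Over the same interval the opposite strand, that of Kcnq1, held 0 to 11 pairs in each library. Summed over 6 libraries, the Kcnq1ot1 strand held 8963 pairs and the opposite strand 21 in wild-type MEFs, and 2332 and 13 in Lkb1-/- MEFs. In clone A1 the sums were 7 and 26, and in clone A2 1 and 22. The few pairs on the Kcnq1 strand were therefore of like number in all 4 lines, while those on the Kcnq1ot1 strand ranged from 1 to 8963.

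**Figure D2:**
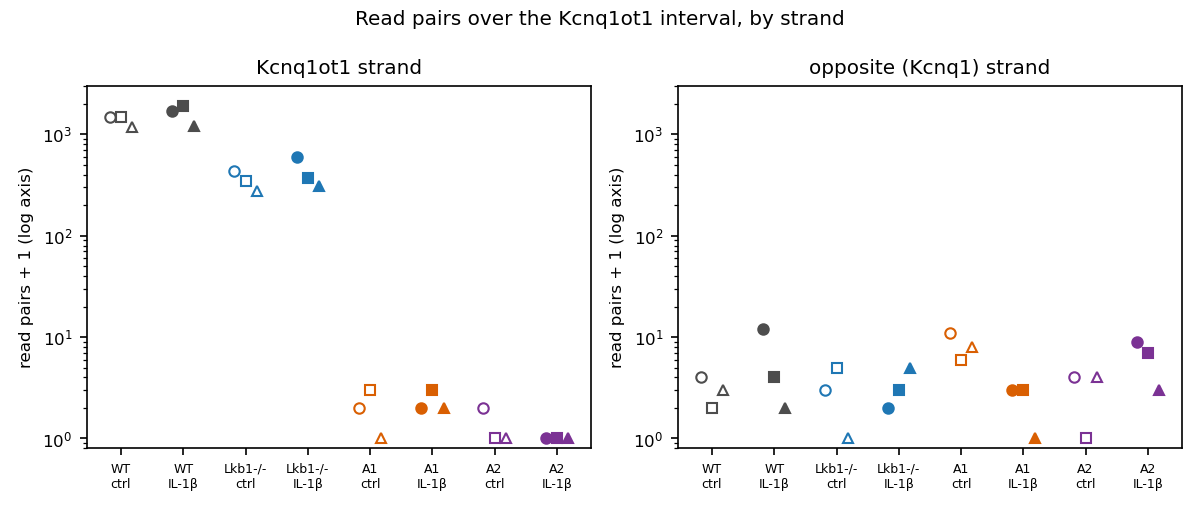
Read pairs + 1 on a log axis over the Kcnq1ot1 interval, on its own strand and on the opposite strand, in each of the 24 libraries, with symbols for replicates and fill for treatment as in the plot of CPM. On the own strand the wild-type and Lkb1-/- libraries held 273 to 1917 pairs and the clones 0 to 2, and on the opposite strand no library held more than 11.

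Genes with a like pattern were counted as a description, with limits set after the values of Kcnq1ot1 were seen, so that its own place among them was fixed by the choice. Of 9909 genes at 5 CPM or more in every Lkb1-/- library, 1 had no more than 3 counts in each of the 12 clone libraries, and it was Kcnq1ot1. At 10 CPM or more, a level Kcnq1ot1 did not reach in every Lkb1-/- library, 0 of 8767 genes met the count limit. At 1 CPM or more, 9 of 12097 genes met the same count limit: Kcnq1ot1, Brinp3, Gpr50, Kcnk5, Mest, Ptprd, Rnf227, Stk32b and Tram1l1. The 5 genes whose centred log2 group means lay nearest to those of Kcnq1ot1 over the 8 groups, among 12922 candidates, were Cspg4, Ptprd, Zfp141, Auts2 and C130021I20Rik, with root mean square differences of 0.73, 0.93, 1.06, 1.32 and 1.78 on the log2 scale. Cspg4, a cell-surface proteoglycan, was at 191 ± 9.32 CPM in untreated wild-type, 18.5 ± 1.43 in Lkb1-/-, 0.144 ± 0.0895 in A1 and 0.257 ± 0.150 in A2 MEFs. Ptprd, a receptor tyrosine phosphatase, was at 6.50 ± 1.91 CPM in untreated wild-type and 2.28 ± 0.135 in Lkb1-/- MEFs, and was listed at 0 in all 12 clone libraries.

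Cdkn1c, which encodes the cyclin-dependent kinase inhibitor p57KIP2, was near 0 counts in wild-type MEFs, where Kcnq1ot1 was highest, and high in the other 3 lines. Wild-type libraries held 0, 2 and 0 pairs untreated and 0, 0 and 1 after IL-1β. Untreated Lkb1-/- libraries held 730, 947 and 1018, and treated ones 576, 935 and 790. Every Lkb1-/- and clone library was above every wild-type library. Pooled, the Lkb1-/- level was 1319 times the wild-type level untreated (95% exact counting interval 365 to 10898) and 2135 times after IL-1β (383 to 84358). Cdkn1c passed the filter on low counts only through the lines in which it is high, since no wild-type library held over 2 pairs. Both differences passed the edgeR quasi-likelihood test (FDR = 3.1e-13 and 5.9e-13), and the log2 fold change of such a gene depends on the prior count, so none is given here.

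Cdkn1c stayed high in the clones. Clone A1 held 849, 1043 and 1149 pairs untreated and 730, 974 and 1032 after IL-1β, and its difference from Lkb1-/- MEFs did not pass (log2 fold change 0.20 ± 0.22 SE, FDR = 0.53 untreated, and 0.34 ± 0.22, FDR = 0.26 after IL-1β). With the replicate number as a block the IL-1β difference of 0.34 passed (FDR = 0.004), and without replicate 1 it was 0.33 (FDR = 0.021). Clone A2 held 1213, 1800 and 1996 pairs untreated and 1021, 1643 and 1489 after IL-1β. Its level was higher than in Lkb1-/- MEFs in both treatments (log2 fold change 0.81 ± 0.22, FDR = 0.0072, and 0.85 ± 0.22, FDR = 0.0054), with no overlap of the libraries. Against clone A1 it was higher untreated (0.61 ± 0.22, FDR = 0.039), a call that was lost when any of 5 of the 6 libraries was left out (all but replicate 1 of A2, highest FDR = 0.14) and in a fit of these 2 groups only (FDR = 0.053). After IL-1β the difference between the clones was 0.51 ± 0.22 (FDR = 0.09), and 0.49 (FDR = 0.00011) with the replicate block. Without replicate 1 of every group this IL-1β difference was 0.57 (FDR = 0.00062). Leaving out replicate 1 of IL-1β-treated A2 alone gave 0.70 (FDR = 0.016).

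Slc22a18, a gene of the organic cation transporter family, was near 0 counts in wild-type MEFs, low in Lkb1-/- MEFs and higher in the clones. Wild-type libraries held 0, 0 and 2 pairs untreated and 1, 0 and 0 after IL-1β. Lkb1-/- libraries held 2, 4 and 6 untreated and 6, 7 and 7 after IL-1β. Untreated groups overlapped in CPM and treated groups did not. Pooled, Lkb1-/- held 5.87 times the wild-type level untreated (95% exact counting interval 1.31 to 54) and 18.6 times after IL-1β (2.97 to 769). The edgeR test passed after IL-1β (FDR = 0.012), where Slc22a18 did not pass the filter in a fit of the compared groups only, and missed untreated (FDR = 0.1), where leaving out replicate 3 of wild type, which holds both of its pairs, gave FDR = 0.035 and a fit with no filter FDR = 0.034.

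Clone A1 held 29, 51 and 41 pairs of Slc22a18 untreated and 34, 21 and 29 after IL-1β. Clone A2 held 14, 27 and 68 untreated and 14, 34 and 51 after IL-1β. Every clone library was above every Lkb1-/- library of the same treatment. Slc22a18 passed the filter on low counts only through the clones, since no wild-type or Lkb1-/- library held over 7 pairs, so its tests are of a gene that entered by being high there. In clone A1 the log2 fold change over Lkb1-/- was 3.32 ± 0.65 untreated (FDR = 0.00039) and 2.14 ± 0.61 after IL-1β (FDR = 0.0092). In clone A2 it was 3.06 ± 0.65 (FDR = 0.0011) and 2.29 ± 0.61 (FDR = 0.0059). The clones did not differ beyond their spread (A2 against A1, -0.26 ± 0.50, FDR = 0.74 untreated, and 0.15 ± 0.51, FDR = 0.87 after IL-1β).

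Phlda2, a pleckstrin homology domain protein that limits placental growth, was low in every line. Untreated wild-type libraries held 25, 8 and 8 pairs, Lkb1-/- 28, 18 and 22, A1 38, 58 and 38, and A2 44, 29 and 46. After IL-1β the counts were 4, 13 and 10, then 15, 7 and 14, then 28, 19 and 25, then 56, 30 and 35. The libraries of wild-type and Lkb1-/- MEFs overlapped in both treatments, and their difference did not pass (log2 fold change 0.71 ± 0.43, FDR = 0.17 untreated, and 0.32 ± 0.49, FDR = 0.6 after IL-1β). The untreated difference passed without replicate 1 of wild type (1.41, FDR = 0.016) and without replicate 1 of every group (1.25, FDR = 0.035). Against Lkb1-/- MEFs, Phlda2 was higher in untreated A1 (1.01 ± 0.39, FDR = 0.046) and in IL-1β-treated A2 (1.71 ± 0.42, FDR = 0.0032). The former call was lost when any of 5 of the 6 libraries was left out (all but replicate 3 of A1, highest FDR = 0.2) and with upper quartile scaling (FDR = 0.052). The other clone comparisons gave 1.06 ± 0.43 (FDR = 0.061) in IL-1β-treated A1, which passed with the replicate block (1.07, FDR = 0.033) and by DESeq2 (FDR = 0.048), and 0.70 ± 0.39 (FDR = 0.18) in untreated A2.

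Kcnq1, a potassium channel subunit, and Ascl2, a transcription factor of the trophoblast, were too low for the filter on low counts and were not tested in the main fit. Kcnq1 had 77 pairs over all 24 libraries: 1 in the 6 wild-type libraries, 20 in Lkb1-/-, 27 in A1 and 29 in A2. It was at 0 in 5 of 6 wild-type libraries and in none of the other 18, each of which held 1 to 10 pairs. In a fit with no filter, Kcnq1 was higher in untreated Lkb1-/- than wild-type MEFs (FDR = 0.0075) and the difference after IL-1β did not pass (FDR = 0.11). These values rest on 11 pairs against 0 untreated and 9 against 1 after IL-1β, summed over the libraries of each group, so they are of a gene at the floor. Ascl2 had 20 pairs in all and was at 0 in 14 libraries, at most 7 in any.

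Cd81, Tssc4, Nap1l4 and Osbpl5 were expressed in every line, without the steps of orders of magnitude seen at Cdkn1c. Cd81, a tetraspanin of the cell surface, was the most abundant member. Untreated wild-type libraries held 332, 415 and 443 CPM and Lkb1-/- libraries 159, 189 and 199 CPM, with no overlap. The log2 fold change was -1.12 ± 0.16 untreated (FDR = 4e-06) and -0.99 ± 0.16 after IL-1β (FDR = 1.8e-05). Clone A1 (151, 192 and 196 CPM untreated) and clone A2 (168, 231 and 228) lay over the range of Lkb1-/- MEFs or little above it, and neither differed from it in the main fit (FDR = 0.38 to 0.94). With the replicate block Cd81 was higher in A2 than in Lkb1-/- MEFs (0.19, FDR = 0.0011 untreated, and 0.11, FDR = 0.038 after IL-1β). It was then also higher in A2 than in A1 (0.22, FDR = 0.00031, and 0.13, FDR = 0.019). Without replicate 1 of every group both untreated differences of 0.24 passed too (FDR = 0.012 and 0.01), against 0.20 and 0.22 (FDR = 0.38 and 0.32) with all libraries.

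Osbpl5, an oxysterol-binding protein that moves lipids between membranes, was at 56.7, 49.3 and 47.1 CPM in untreated wild-type libraries and 37.0, 37.8 and 38.2 CPM in Lkb1-/- libraries. It was lower in Lkb1-/- MEFs untreated (-0.44 ± 0.11, FDR = 0.0015) and after IL-1β (-0.31 ± 0.11, FDR = 0.016), and the latter call was lost without replicate 1 of either group (FDR = 0.058 without wild type, 0.088 without Lkb1-/-). Tssc4, a factor of the spliceosome, was at 22.2, 22.4 and 24.4 CPM in wild-type and 17.9, 19.0 and 21.6 CPM in Lkb1-/- libraries untreated. Its differences were -0.24 ± 0.078 (FDR = 0.013) and, after IL-1β, -0.21 ± 0.078 (FDR = 0.025). Nap1l4, a histone chaperone, was at 142, 134 and 131 CPM in wild-type and 123, 121 and 119 CPM in Lkb1-/- libraries untreated, with differences of -0.16 ± 0.055 (FDR = 0.016) and -0.20 ± 0.055 (FDR = 0.0033).

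The small differences of Tssc4 and Nap1l4 depended on single libraries and on scaling. Tssc4 missed the threshold without replicate 2 of untreated Lkb1-/- MEFs (FDR = 0.051), and after IL-1β without replicate 1 of wild type (0.079) or replicate 1 or 2 of Lkb1-/- MEFs (0.1 and 0.075). Nap1l4 missed it untreated without replicate 1 of wild type (FDR = 0.087). Both missed it in both treatments with upper quartile scaling (FDR = 0.058 to 0.19), which moved the median log2 fold change of all genes from 0.041 to 0.121 untreated and from 0.033 to 0.135 after IL-1β. They also missed it in both treatments with no filter on low counts (FDR = 0.095 to 0.28) and, after IL-1β, in a fit of the compared groups only (FDR = 0.1 and 0.052). Without replicate 1 of every group, Tssc4 after IL-1β was at -0.16 (FDR = 0.11). In neither clone did these 3 genes differ from Lkb1-/- MEFs in the main fit (absolute log2 fold changes of at most 0.16). Osbpl5 was higher in untreated A2 than in Lkb1-/- MEFs when replicate 1 of A2 was left out (0.24, FDR = 0.043) or replicate 1 of every group (0.21, FDR = 0.0053), against 0.093 (FDR = 0.56) with all libraries. Without replicate 1 of every group it was also higher in untreated A2 than in A1 (0.22, FDR = 0.0045), against 0.099 (FDR = 0.53) with all libraries.

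**Figure D3:**
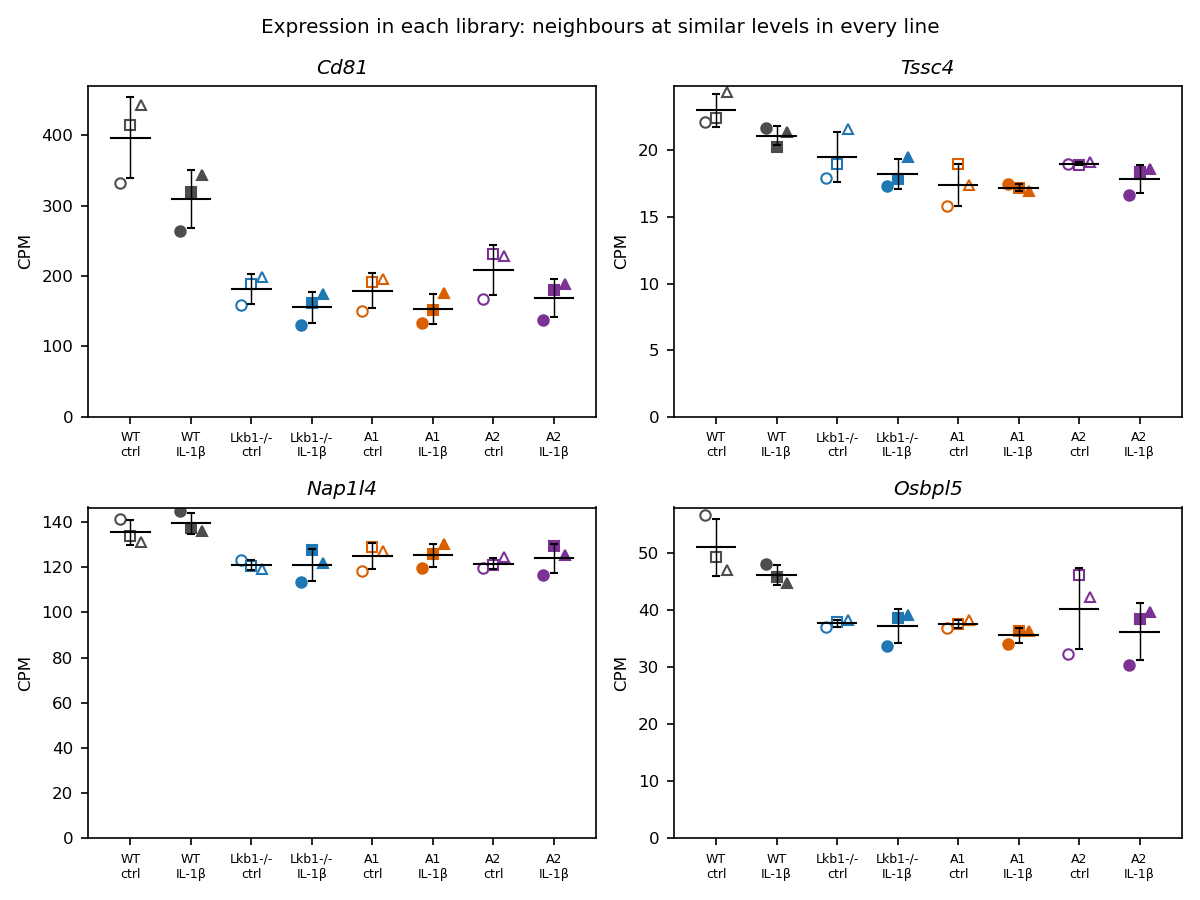
CPM in each of the 24 libraries for Cd81, Tssc4, Nap1l4 and Osbpl5, on axes from 0, with group means and SD in black and symbols as in the plot of Kcnq1ot1. Untreated Cd81 fell from a mean of 397 CPM in wild-type to 182 CPM in Lkb1-/- MEFs, and Nap1l4 lay between 113 and 145 CPM in all libraries.

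Counted over the 9 neighbours, 5 passed in Lkb1-/- against wild-type MEFs untreated (1 higher, 4 lower), where 55.9% of all 17522 genes tested passed, and 6 after IL-1β (2 higher, 4 lower), where 57.4% passed. The median log2 fold change of the 7 neighbours tested was -0.16 untreated, against 0.041 for all genes. In clone A1 against Lkb1-/- MEFs 2 passed untreated and 1 after IL-1β, all higher, where 35.3% and 36.7% of all genes passed. In clone A2 against Lkb1-/- MEFs 2 passed untreated and 3 after IL-1β, all higher, where 32.3% and 32.8% passed. Between the clones 1 passed untreated and 0 after IL-1β, where 32.5% and 30.7% passed. With the replicate block the count was 3 for A1 after IL-1β, where 49.1% of all genes passed. It was 3 and 4 for A2 untreated and after IL-1β, where 45.9% and 46.6% passed, and 2 and 2 between the clones, where 46.3% and 44.4% passed. These shares are over genes tested, and 7 of the 9 neighbours were tested. Cdkn1c is in both main-fit counts of Lkb1-/- against wild type, and Slc22a18 is in that after IL-1β. Slc22a18 is also in every main-fit count of a clone against Lkb1-/- MEFs. Both genes passed the filter only through lines in which they are high, so these calls and their direction are not independent of that entry. With 7 genes against shares of this size, nothing particular to the domain is read from the counts. Comparisons that share the Lkb1-/- libraries are not independent of each other. The 58 genes tested within 2 Mb on either side had a median of -0.34 in Lkb1-/- against wild type and of -0.0071 and 0.10 in A1 and A2 against Lkb1-/- MEFs, untreated. Over all 1272 genes tested on chromosome 7 the medians were -0.18, -0.0088 and 0.061 in the same order, so a negative median in Lkb1-/- was not limited to this domain.

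**Figure D4:**
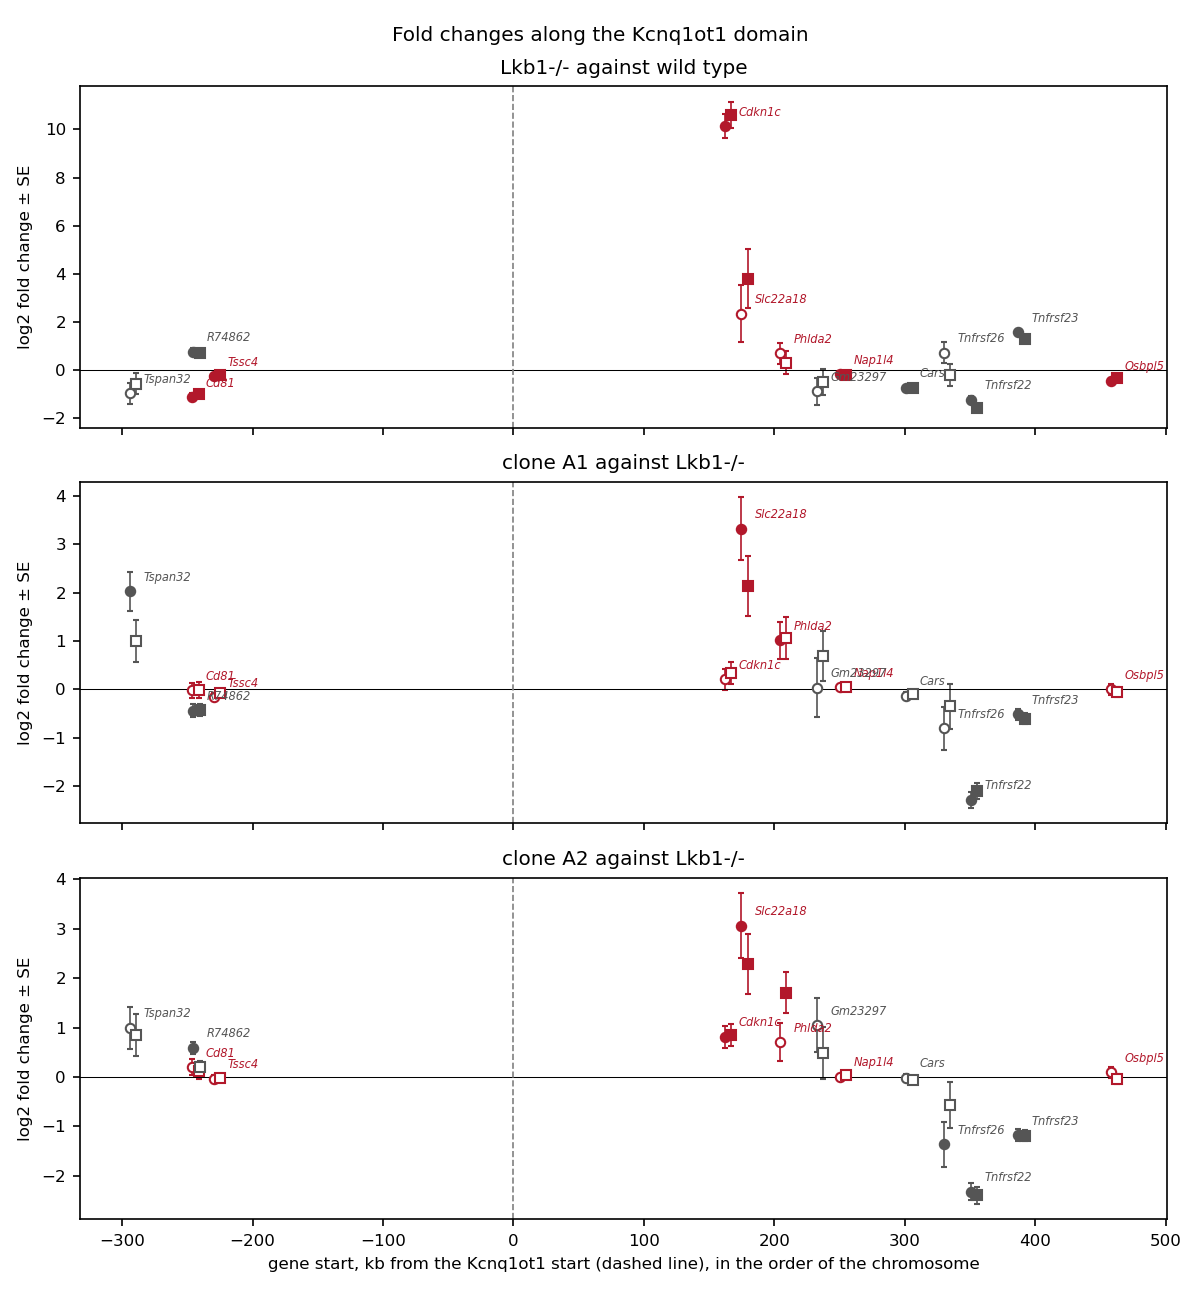
Log2 fold change ± SE of the 7 neighbours tested (red) and the 7 other genes of the span tested (grey) against the distance of each gene start from the Kcnq1ot1 start in kb, which is the dashed line. Circles are untreated, squares IL-1β, and filled symbols passed FDR 0.05. In Lkb1-/- against wild type the values of Cdkn1c and Slc22a18 depend on the prior count, and against Lkb1-/- MEFs Slc22a18 stood at 3.32 and 3.06 in untreated A1 and A2 while Tnfrsf22 stood at -2.29 and -2.32.

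Per kb of exon, the most abundant members in untreated wild-type MEFs were Cd81 (138 CPM per kb), Nap1l4 (43.8), Tssc4 (12.5) and Osbpl5 (10.4), and Kcnq1ot1 was at 0.349 CPM per kb over its 93.09 kb. Cdkn1c was at 0.00753 CPM per kb in wild-type MEFs and at 10.3, 11.8 and 18 in untreated Lkb1-/-, A1 and A2 MEFs. In the same untreated lines Tssc4 was at 10.6, 9.44 and 10.3 CPM per kb and Osbpl5 at 7.67, 7.64 and 8.19. Slc22a18 was at 0.0102, 0.0551, 0.564 and 0.472 CPM per kb in the same order of lines, and Phlda2 at 0.283, 0.468, 0.949 and 0.764. Kcnq1 did not exceed 0.0385 CPM per kb in any group.

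None of the 9 neighbours passed for IL-1β against untreated in the main fit, with 0 calls in wild-type, Lkb1-/-, A1 or A2 MEFs, where 2.26%, 4.74%, 1.99% and 5.68% of all genes passed. Cd81 had log2 fold changes of -0.36 ± 0.16 (wild type), -0.23 ± 0.16 (Lkb1-/-), -0.23 ± 0.16 (A1) and -0.31 ± 0.16 (A2), with FDR = 0.33 to 0.71. With the replicate block Cd81 was lower after IL-1β in all 4 lines (FDR = 6.6e-06, 0.00065, 0.0017 and 2.3e-05), and it was the 1 neighbour that passed in each, where 9.3%, 14.8%, 9.61% and 17.9% of all genes passed. Without replicate 1 of every group it passed in wild-type MEFs (-0.37, FDR = 0.0052) and A2 (-0.32, FDR = 0.0062), and Osbpl5 passed in A2 (-0.18, FDR = 0.038, against -0.15 and FDR = 0.52 with all libraries). No difference between the responses of the lines passed at any neighbour, with 0 calls for Lkb1-/- minus wild type, A1 minus Lkb1-/- and A2 minus Lkb1-/-, where 0.245%, 0.0285% and 0% of all genes passed. In the last of these, 388 genes had an unadjusted p under 0.05 by edgeR, and DESeq2 called 9. For Cd81 these differences of responses were 0.13, 0.0028 and -0.081, each ± 0.22.

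Of the 26 other annotated genes of the span, 7 had 0 counts and 7 passed the filter. In untreated Lkb1-/- against wild-type MEFs 2 of these 7 were higher and 2 lower, in A1 against Lkb1-/- MEFs 1 was higher and 3 lower, and in A2 against Lkb1-/- MEFs 1 was higher and 3 lower, where 55.9%, 35.3% and 32.3% of all genes passed. Of these 7, Tnfrsf22 and Tnfrsf23 passed in all 3 of these comparisons in both treatments. No share of all genes is given for passing in all of them, and the comparisons share the Lkb1-/- libraries, so nothing is read from this count. They are decoy receptor genes, which encode surface receptors that bind the ligand TRAIL without a death signal. Tnfrsf22 held 1970, 1787 and 1591 pairs in untreated wild-type, 936, 745 and 668 in Lkb1-/-, 154, 139 and 175 in A1 and 204, 166 and 134 in A2 libraries. Its level fell at both steps, with no overlap between wild type, Lkb1-/- and the clones: -1.22 ± 0.15 in Lkb1-/- against wild type (FDR = 5.7e-07), -2.29 ± 0.17 in A1 (FDR = 2.2e-09) and -2.32 ± 0.16 in A2 (FDR = 2.3e-09) against Lkb1-/- MEFs.

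Tnfrsf23, beside it, was highest in Lkb1-/- MEFs. It held 1602, 1194 and 1174 pairs in untreated wild-type, 4442, 3582 and 4143 in Lkb1-/-, 2786, 2441 and 3066 in A1 and 2196, 1588 and 2001 in A2 libraries. The log2 fold change was 1.59 ± 0.12 in Lkb1-/- against wild type (FDR = 2e-10), and -0.52 ± 0.11 in A1 (FDR = 0.0011) and -1.17 ± 0.12 in A2 (FDR = 1.6e-07) against Lkb1-/- MEFs. Cars, the cysteinyl-tRNA synthetase gene, was lower in Lkb1-/- than wild-type MEFs (-0.72 ± 0.075, FDR = 4.4e-08) and did not pass in the clones (FDR = 0.17 and 0.89 untreated). R74862, which overlaps the start of Cd81 on the other strand, was higher in Lkb1-/- than wild-type MEFs (0.77 ± 0.13, FDR = 3.7e-05). It was lower in untreated A1 (-0.44 ± 0.13, FDR = 0.011) and higher in untreated A2 (0.59 ± 0.13, FDR = 0.0012) than in Lkb1-/- MEFs. Tspan32, a tetraspanin gene of blood cells with 2 to 20 pairs a library, was higher in untreated A1 than in Lkb1-/- MEFs (2.02 ± 0.40, FDR = 0.00044). Its counts lay near the filter's minimum count of 10, which it passed with the help of its A1 libraries, so this call is of a gene near the floor. Tnfrsf26 was lower in untreated A2 (-1.36 ± 0.46, FDR = 0.026), and the snoRNA gene Gm23297 passed in no comparison between lines. Of these 7 genes, IL-1β changed R74862 in A2 (-0.46 ± 0.13, FDR = 0.035), where 5.68% of all genes passed, and none in wild type, Lkb1-/- and A1, where 2.26%, 4.74% and 1.99% passed.

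**Figure D5:**
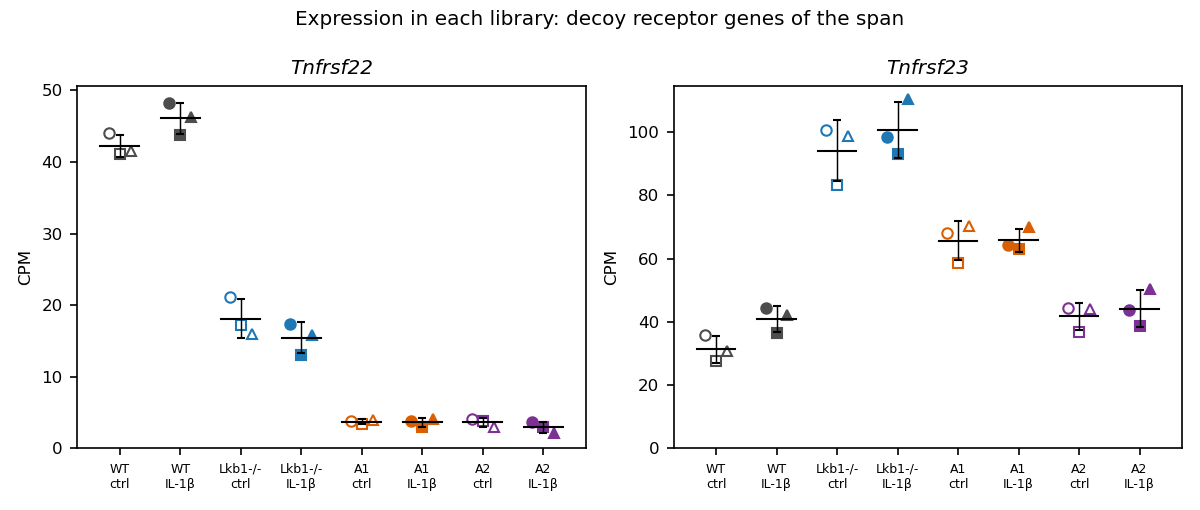
CPM of Tnfrsf22 and Tnfrsf23 in each of the 24 libraries on axes from 0, with group means and SD in black and symbols as in the plot of Kcnq1ot1. Untreated Tnfrsf22 stood at 42.2 CPM in wild-type, 18.1 in Lkb1-/- and 3.70 and 3.63 in A1 and A2 MEFs, and Tnfrsf23 at 31.3, 94.1, 65.7 and 41.7 CPM.

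Of 18 genes that write, erase or guard the silent state of imprinted loci, all were tested. In untreated Lkb1-/- against wild-type MEFs 4 were higher and 9 lower, where 55.9% of all genes passed. Those with the largest changes were Dnmt3a, a de novo DNA methyltransferase (-2.04 ± 0.17, FDR = 9.2e-10), Zfp57, which protects imprint methylation (-1.53 ± 0.17, FDR = 1.8e-07), Ezh2, the Polycomb methyltransferase (0.68 ± 0.063, FDR = 7.5e-09), and Tet1, a methylcytosine oxidase (-0.57 ± 0.19, FDR = 0.013). After IL-1β 4 were higher and 10 lower, where 57.4% of all genes passed. The median over the 18 was -0.21 untreated, against 0.041 for all genes.

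In untreated A1 against Lkb1-/- MEFs 4 of these 18 were higher and 5 lower, where 35.3% of all genes passed. Tet1 (1.00 ± 0.18, FDR = 0.00022), Dnmt3b, a further de novo methyltransferase (0.68 ± 0.16, FDR = 0.0022), Ehmt2, the H3K9 methyltransferase (-0.61 ± 0.093, FDR = 2.7e-05), and Uhrf1, a partner of Dnmt1 (-0.52 ± 0.090, FDR = 0.00011), were the largest. In untreated A2 4 were higher and 2 lower, where 32.3% passed, led by Tet1 (1.85 ± 0.18, FDR = 1.8e-07), Dnmt3b (0.69 ± 0.16, FDR = 0.0021), Tet2 (-0.56 ± 0.098, FDR = 0.00018) and Tet3 (0.24 ± 0.086, FDR = 0.04). Dnmt1, the maintenance methyltransferase, was higher in A1 (0.39 ± 0.077, FDR = 0.00039). The counts after IL-1β were 4 and 5 in A1 (36.7% of all genes passed) and 4 and 2 in A2 (32.8%). Against A1, A2 had 6 higher and 2 lower untreated (32.5% of all genes passed) and 8 and 2 after IL-1β (30.7%). IL-1β itself moved 1 of the 18 in A2 (Dnmt3l, higher, FDR = 0.0075), where 5.68% of all genes passed, and 0 in wild type, Lkb1-/- and A1, where 2.26%, 4.74% and 1.99% passed. Dnmt3l was measured with wide errors, its SE in A2 against Lkb1-/- MEFs being 0.94 untreated and 0.60 after IL-1β on the log2 scale.

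Of 5 other long nuclear RNAs, Malat1, Neat1 and Airn passed the filter, while Meg3 and Snhg14 did not. Malat1, at 2457 to 4007 CPM as group means, passed in no comparison. Its log2 fold change in Lkb1-/- against wild-type MEFs was 0.64 ± 0.36 untreated (FDR = 0.15), without overlap of the libraries, and 0.44 ± 0.36 after IL-1β (FDR = 0.32), with overlap, and those in the clones against Lkb1-/- MEFs lay between -0.014 and 0.12. Neat1 was higher in untreated Lkb1-/- than wild-type MEFs (1.36 ± 0.49, FDR = 0.022), did not pass after IL-1β (0.93 ± 0.48, FDR = 0.11), and passed in neither clone. Airn, the imprinted antisense RNA of the Igf2r domain, which like Kcnq1ot1 is paternally expressed, stood at 5.78 ± 1.08 CPM in untreated wild-type, 3.61 ± 0.214 in Lkb1-/-, 2.37 ± 0.283 in A1 and 5.44 ± 0.622 in A2 MEFs. It was lower in Lkb1-/- than wild-type MEFs untreated (-0.68 ± 0.16, FDR = 0.0012) and after IL-1β (-0.48 ± 0.16, FDR = 0.017), with no overlap. Untreated, it was lower in A1 (-0.60 ± 0.17, FDR = 0.0077) and higher in A2 (0.59 ± 0.16, FDR = 0.0077) than in Lkb1-/- MEFs. After IL-1β it was lower in A1 (-0.71 ± 0.17, FDR = 0.0022), and the value in A2 did not pass (0.29 ± 0.16, FDR = 0.19). It was present in all 12 clone libraries with 81 to 295 pairs.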

How the data were processed

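RNA-seq was analysed from 24 libraries of 4 MEF lines, untreated or given IL-1β. The authors trimmed reads with Trim Galore 0.6.0, aligned them with STAR 2.7.8a to GRCm38.p6 (mm10) with GENCODE vM24, and deposited read pair counts per gene for each strand setting. The study's methods name a KAPA RNA HyperPrep kit with reduction of ribosomal RNA, and the labels name a SMARTER mRNA-Seq kit. Which was used is not settled. Counts of the reverse-strand setting were used as deposited, and lines that name no gene (26.7 to 34.4% of pairs) were left out. Symbols, exon lengths and positions came from GENCODE vM21 of the same build (55230 of 55471 ids matched).

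Genes were kept with edgeR's filterByExpr (minimum count 10 and minimum total 15, 17522 genes), scaled by TMM (factors 0.922 to 1.09) and tested with edgeR 4.0.16 (R 4.3.3), quasi-likelihood F test, legacy form, with 1 coefficient per group over all 24 libraries and Benjamini-Hochberg FDR over all genes tested. A call is FDR under 0.05. CPM are gene counts over the TMM-scaled library size in units of 1e+06. The scripts were tested on simulated data. No libraries of a group agreed within sampling noise (smallest chi-square per degree of freedom 7.41).

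The members and gene lists were chosen with earlier results of these data known. Named genes were the 10 members, the other genes of their span that passed the filter, up to 4 silencing factors per comparison with the largest changes among those called, and the 5 genes nearest Kcnq1ot1 by root mean square difference of centred log2(CPM + 0.05) group means. Dnmt1, Dnmt3l, the markers Col1a2 and Fbln2, and genes of the count near 0 in the clones were named after their values were seen.

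The labels number replicates 1 to 3 in every group. Same-numbered libraries deviated together: in each of the 12 comparisons of 2 groups all 3 correlations of deviations from the group means were over 0.1 (0.15 to 0.794), so the number was treated as pairing them, from the data and not from a stated design, and the value with a replicate block is given where it changes a call. Alternatives were unstranded counts, DESeq2 1.42.0 size factors and its Wald test, upper quartile scaling, no filter, the replicate block, a fit of the groups compared only, each library left out and, chosen after seeing the data, replicate 1 of every group left out.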

Additional observations from a re-analysis of the deposited data

Results flagged for a closer look

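Both clones were made in the same Lkb1-/- line, and at 4 of the 14 genes tested in the span (Cdkn1c and 3 that are not among the 10) their levels differed by the test of A2 against A1 (edgeR), a comparison in which 32.5% of all genes passed untreated and 30.7% after IL-1β. Cdkn1c was higher in A2 untreated by 0.61 on the log2 scale (FDR = 0.039), a call lost when any of 5 of the 6 libraries was left out (FDR up to 0.14) and in a fit of these 2 groups only (0.053). R74862 was higher in A2 by 1.03 untreated (FDR = 3.5e-06) and by 0.625 after IL-1β (FDR = 0.00089). Tnfrsf23 was lower in A2, with log2 fold changes of -0.655 untreated (FDR = 0.00015) and -0.57 after IL-1β (FDR = 0.00059). Tspan32 was lower in untreated A2 with a log2 fold change of -1.03 (FDR = 0.031), from 8 to 10 pairs a library against 12 to 20 in A1. These counts lie near the filter's minimum count of 10, so this call too is of a gene near the floor. All 3 A2 libraries lay on the same side of all 3 A1 libraries in each of these comparisons except that of Cdkn1c, where replicate 1 of A2 fell inside the range of A1. Against the shares of all genes given above, nothing particular to the domain is read from the number of these calls. No share of all genes is given for the separation of libraries, so nothing is read from that either.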

How the results depend on the processing

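No called value of the 7 neighbours tested changed sign under any alternative, and of their 1590 values under alternatives 1529 kept their side of the threshold, 30 lost it and 31 gained it. The number of the 9 neighbours called moved by over 1.5 times as follows. Upper quartile scaling gave 3 in untreated Lkb1-/- against wild type and 1 in untreated A1 against Lkb1-/-. A fit of the compared groups only gave 3 in Lkb1-/- against wild type after IL-1β and 0 in untreated A2 against A1. With no filter the counts were 2 in IL-1β-treated A1 against Lkb1-/-, 1 in IL-1β-treated A2 against A1, and 1 in the IL-1β responses of wild type and of A2. DESeq2 gave 2 in IL-1β-treated A1 against Lkb1-/-. The replicate block gave 3 there, 2 in A2 against A1 untreated, 2 after IL-1β, and 1 in each of the 4 IL-1β responses, and it changed no call other than those printed beside the results. Without replicate 1 of every group, chosen after seeing the data, the counts were 2 in IL-1β-treated A1 and 4 in untreated A2 against Lkb1-/-, 3 in A2 against A1 untreated and 1 after IL-1β, and 1 and 2 in the IL-1β responses of wild type and A2. The number of all genes called rose there too, from 6437 to 7271, 5655 to 6842, 5692 to 7097, 5374 to 6686, 396 to 921 and 995 to 2556, in the same order. The other genes named were not refitted. The cause of these changes was not tested. Leaving out each library in turn gave 4 to 6 calls in both comparisons of Lkb1-/- with wild type, 1 to 2 in untreated and 1 in IL-1β-treated A1, 2 to 3 in untreated and 3 in IL-1β-treated A2 against Lkb1-/-, 0 to 1 in both comparisons of the clones, and 0 in the IL-1β responses and their differences. The Kcnq1ot1 log2 ratio of means of Lkb1-/- over wild type ranged from -2.16 to -1.87 untreated and from -2.37 to -1.84 after IL-1β when libraries were left out, and moved by less than 1 SD under unstranded counts and other scalings. Depth limits Kcnq1 (0 to 10 pairs a library), Ascl2 (0 to 7) and the wild-type levels of Cdkn1c and Slc22a18 (0 to 2).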

Other observations

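Mest, a further imprinted gene read from the paternal copy, was among the 9 genes at 1 CPM or more in every Lkb1-/- library and at no more than 3 counts in every clone library. It held 57, 83 and 56 pairs in untreated Lkb1-/- libraries and 44, 61 and 43 after IL-1β, at most 3 in any clone library, and 0 in all 6 wild-type libraries. Its wild-type level therefore differed from that of Kcnq1ot1, which was highest there. Kcnk5, a potassium channel gene in the same set, held 162 to 251 pairs in Lkb1-/- libraries and 0 in wild-type libraries. Of the genes at 5 CPM or more in every Lkb1-/- library, 4 had no more than 30 counts in every clone library: Aim2, Cspg4, Kcnq1ot1 and Tfpi. Tfpi, an inhibitor of blood coagulation, held 465 to 581 pairs in Lkb1-/- libraries and 0 to 5 in wild-type libraries. All of these genes were named after their values were seen, and the values are given as a description with no test.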
